A study of Lactuca sativa with 6 samples.

Results

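The clusters described here are the cell wall sensing kinases and wall proteins that the lettuce (Lactuca sativa) leaf study named among its treatment-responsive transcripts. They comprise 5 of the 39253 assembled transcript clusters, 3 of them kinases and 2 of them wall proteins. The kinases are the receptor-like protein kinase THESEUS 1 (Cluster-15809.12001, locus LOC111895468), the receptor-like protein kinase FERONIA (Cluster-18385.0, LOC111896362) and the brassinosteroid signalling kinase BSK3 (Cluster-15809.3701, LOC111907501). The wall proteins are extensin-2-like (Cluster-15809.8681) and arabinogalactan peptide 12-like (Cluster-15809.12921, LOC111893235). All but extensin-2-like were chosen by the study on their measured read counts in treated against untreated seedlings, so those differences are given below as a description and carry no test. Extensin-2-like comes from the qRT-PCR list of the study, where it stands beside the comparison of LsSq with untreated seedlings, and what it was selected on is not stated. The comparison between the extracts was tested.

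RNA was sequenced from leaves in 6 libraries, 2 in each of 3 groups. Seedlings were transplanted 10 to a box on pumice and acclimatized for 6 days. The LsCK seedlings then received 500 mL of Hoagland nutrient solution alone. The LsCv seedlings received the same volume with an extract of the green microalga Chlorella vulgaris at 1 mg of organic carbon per litre, and the LsSq seedlings received it with an extract of Scenedesmus quadricauda at the same concentration. All leaves were taken 4 days after the treatment. The labels mention 5 biological replicates for the treatments, and no source says which plants each of the 2 libraries holds, so p-values measure the spread between these libraries, which may be technical.

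The plant cell wall is monitored by receptor kinases that span the plasma membrane. In Arabidopsis, THESEUS and FERONIA belong to the CrRLK1L family, whose extracellular malectin-like domains face the wall and whose members perceive RALF peptides and tune growth when the wall is disturbed. BSK kinases sit on the inner face of the membrane and pass on the brassinosteroid signal, which promotes cell expansion. Extensins and arabinogalactan proteins are hydroxyproline-rich glycoproteins of the wall itself: extensins are cross-linked into a network, and arabinogalactan peptides are short proteins carrying large sugar chains.

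The study designed qRT-PCR primers for both wall proteins, and these are shown as the sequences the study itself tied to those clusters. They were not matched to a transcript here. They run 5′ to 3′, with the 5 bases at the 3′ end, from which the polymerase extends, in capitals.
extensin-2-like forward: aagccatcgtaaaggtCGTGG
extensin-2-like reverse: tgtgacctccacaacAGCAC
arabinogalactan peptide 12-like forward: cgccgtcgttgtaatGTTGA
arabinogalactan peptide 12-like reverse: agagcaatgatggagGCGAC
The values of those qRT-PCR runs were not used here. All levels below are RNA-seq counts per 1000000 counts of the library (CPM) after edgeR's TMM scaling of library totals, and levels are compared between libraries for the same cluster, never between clusters.

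The libraries held between 26408716 and 35184764 counts, and 3 counts, the limit that a count of 0 would allow, correspond to between 0.0858 and 0.111 CPM. All 5 clusters were counted in all 6 libraries and passed the filter on low counts, as did 28157 clusters in all. Across those, edgeR's quasi-likelihood test called 0 in each of the 3 comparisons at an adjusted p of 0.05 or less. The unadjusted p was under 0.05 in 16% of tested clusters for LsCv versus LsSq, in 8.73% for LsCv versus LsCK and in 4.65% for LsSq versus LsCK. DESeq2, fitted to the same 6 libraries, called 1488 of 27064 clusters (5.5%) in LsCv versus LsSq. LsCK replicate 2 stood apart in part of the study's core response list. The 923 clusters of that list that no lettuce sequence describes summed to 42943 of its 26408716 counts. They summed to between 2798 and 4644 counts in the other 5 libraries, and 893 of them were counted only in LsCK replicate 2. The study chose that list on the difference from LsCK in these libraries, which favours clusters in which a control library is extreme. These sums therefore cannot show whether the library stands apart beyond that list. Leaving the clusters that no lettuce sequence describes out of the TMM scaling hardly moved the fold changes of the 5 clusters. In LsCv versus LsCK the log2 fold change of THESEUS was then −1.688 beside −1.689, and that of arabinogalactan peptide 12-like −0.8238 beside −0.8243. Their part in the results beyond the scaling was not tested. Fold changes against LsCK, spreads and likeness values are given below with LsCK replicate 2 and without it. Fewer cells of a type and less RNA per cell cannot be told apart in RNA from whole leaves. Names of clusters were held only for the study's own lists, so leaf marker genes were not checked.

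THESEUS, the kinase that in Arabidopsis restrains growth when cellulose synthesis is impaired, was measured at 9.44 CPM in LsCK replicate 1 and 65.5 CPM in LsCK replicate 2. It was at 15.3 and 7.94 CPM in the LsCv libraries and at 12.6 and 17.1 CPM in the LsSq libraries. The only library that stood out was LsCK replicate 2, which lay 3.84-fold above the highest of the other 5, while LsCK replicate 1 lay inside the range of the treated libraries. The underlying counts were 330 and 1876 in the controls and from 238 to 501 in the treated libraries, which puts the gap between the controls far outside counting error. The fitted log2 fold change was −1.69 ± 0.83 (SE, n = 2 libraries per group) in LsCv versus LsCK and −1.34 ± 0.82 in LsSq versus LsCK. Without LsCK replicate 2 the same fit gave 0.29 and 0.65, so the lower THESEUS level of treated leaves turned its direction when that library was left out. Without LsCK replicate 1 it gave −2.49 and −2.17.

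FERONIA, the family member that in Arabidopsis binds RALF peptides and pectin and keeps walls intact during growth and stress, had its highest values in treated leaves. It was measured at 4.15 and 1.96 CPM in the controls. The LsCv libraries gave 2.77 and 12.7 CPM and the LsSq libraries 2.54 and 11.5 CPM. In both treatments it was replicate 2 that was high, 4.57-fold above replicate 1 in LsCv and 4.51-fold above it in LsSq, and both treated replicate 1 libraries fell between the controls. The log2 fold change was 1.34 ± 0.94 in LsCv versus LsCK and 1.20 ± 0.93 in LsSq versus LsCK (SE, n = 2 per group). Leaving out LsCv replicate 2 turned the first to −0.15, and leaving out LsSq replicate 2 turned the second to −0.27. With LsCK replicate 2 left out, the first was 0.88 and the second 0.76. FERONIA was the member with the lowest counts, from 56 to 380, and these were whole numbers in all 6 libraries.

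BSK3, which in Arabidopsis is phosphorylated by the brassinosteroid receptor at the membrane, was the only one of the 5 clusters whose treated libraries all lay on the same side of both controls. The controls were at 25.2 and 57.1 CPM. The LsCv libraries were at 14.0 and 10.9 CPM and the LsSq libraries at 14.1 and 15.4 CPM. The lower control was 1.64-fold above the highest treated library, whereas the controls differed 2.27-fold from each other. All 4 treated libraries lay below both controls in 5.17% of the tested clusters. Taken singly, LsCv did not overlap LsCK in 36.6% and LsSq did not overlap LsCK in 38.6% of them, and BSK3 was the only one of the 5 clusters in either count. The study chose BSK3 on this difference, so nothing is read from these shares. The log2 fold change was −1.72 ± 0.43 in LsCv versus LsCK and −1.48 ± 0.42 in LsSq versus LsCK (SE, n = 2 per group). Without LsCK replicate 2 these were −1.02 and −0.78, closer to 0 by more than 1.5 times on the log2 scale, and without LsCK replicate 1 they were −2.19 and −1.99. The direction was kept in 17 of 17 alternative settings for each comparison.

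**Figure D1:**
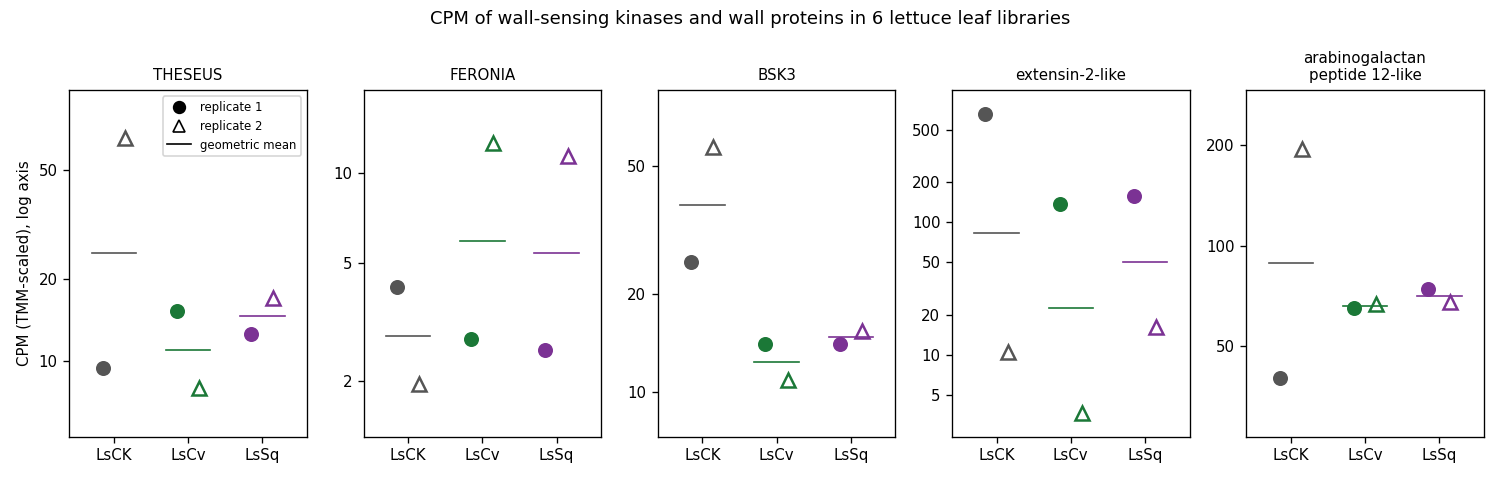
CPM (TMM-scaled, log axis) of the 5 clusters in each library, by group; circles are replicate 1, triangles replicate 2 and lines the geometric mean of the 2 libraries. THESEUS and arabinogalactan peptide 12-like are highest in LsCK replicate 2, FERONIA in the treated replicate 2 libraries and extensin-2-like in every replicate 1 library, whereas the treated BSK3 libraries all lie between 10.9 and 15.4 CPM, below both controls.

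Arabinogalactan peptide 12-like, a short wall glycoprotein held to the membrane by a lipid anchor in its Arabidopsis relatives, was measured at 40.3 and 194 CPM in the controls. It was at 65.1 and 67.0 CPM in LsCv and at 74.1 and 67.8 CPM in LsSq. All 4 treated libraries therefore lay between the controls, from 1.61- to 1.84-fold above LsCK replicate 1 and from 2.62- to 2.97-fold below LsCK replicate 2. The treated libraries varied little among themselves, with means of 66.1 ± 1.36 CPM in LsCv and 71.0 ± 4.42 CPM in LsSq (SD, n = 2), against 117 ± 108 CPM in LsCK. The log2 fold change was −0.82 ± 0.65 in LsCv versus LsCK and −0.72 ± 0.65 in LsSq versus LsCK, and without LsCK replicate 2 it was 0.70 and 0.81. Its estimated counts were not whole in 5 of 6 libraries. RSEM gives such values where it divides reads between clusters, so its level is less certain than a count of whole reads.

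Extensin-2-like, a structural protein of the wall network, differed far more between the libraries of a group than between groups. LsCK replicate 1 held 657 CPM and LsCK replicate 2 held 10.6 CPM. The LsCv libraries held 138 and 3.67 CPM and the LsSq libraries 157 and 16.4 CPM. Replicate 1 was 61.9-fold above replicate 2 in LsCK, 37.7-fold in LsCv and 9.60-fold in LsSq, and the counts behind these ratios, from 110 to 22951, put them far outside counting error. The size of these replicate ratios lay at the 99.7th, 99.6th and 98.5th percentile of the tested clusters in the 3 groups. In all, 33 of the 28157 tested clusters, this one among them, had replicate 1 at least 8-fold above replicate 2 in all 3 groups, and 2 had the reverse.

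The log2 fold change of extensin-2-like was −2.23 ± 2.06 in LsCv versus LsCK and −1.94 ± 2.04 in LsSq versus LsCK (SE, n = 2 per group). With LsCK replicate 2 left out, it was −3.22 and −2.93. Without LsCK replicate 1 it was 2.74 and 2.99, and without LsCv replicate 1 the first was −6.48. Without LsSq replicate 1 the second was −4.35. What the replicate numbers stand for is not given in the sources used here, so whether a shared box, day or position lies behind the numbers was not tested.

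**Figure D2:**
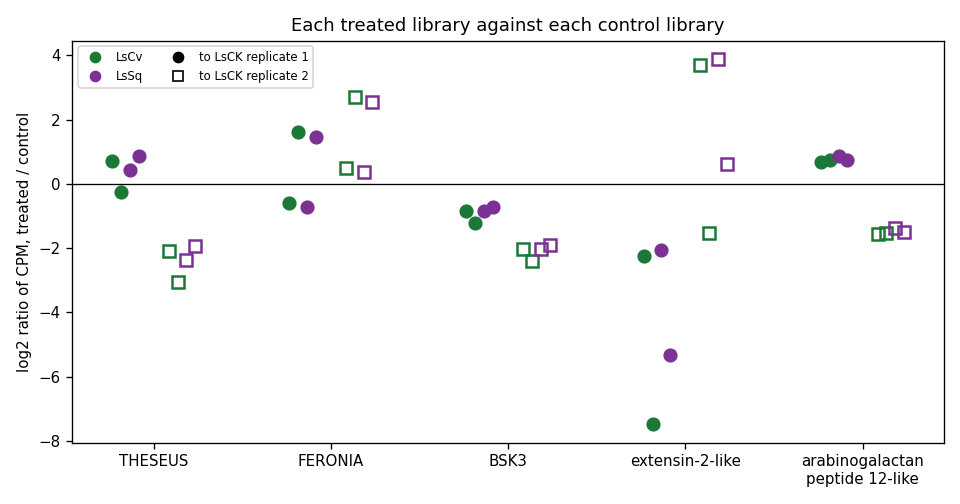
Log2 ratio of CPM of each treated library to each control library; filled circles are ratios to LsCK replicate 1, open squares to LsCK replicate 2, in green for LsCv and purple for LsSq. BSK3 is the only cluster with all 8 ratios on the same side of 0, and arabinogalactan peptide 12-like lies above 0 against LsCK replicate 1 and below 0 against LsCK replicate 2.

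With all libraries, BSK3 had most of its variation between the groups and extensin-2-like most of its variation between replicate numbers. Of the sum of squares of log2 CPM over the 6 libraries, 79.6% lay between the 3 groups for BSK3, against a median of 49.2% over the tested clusters. The share was 24.2% for THESEUS, 19.8% for FERONIA, 8.97% for extensin-2-like and 6.97% for arabinogalactan peptide 12-like, all below that median. Between the replicate numbers, extensin-2-like had 86.2% of its sum of squares, against a median of 14.4% over the tested clusters and 3.93% for BSK3. These shares depended on LsCK replicate 2. Without it, 98.2% of the sum of squares of arabinogalactan peptide 12-like lay between the groups, 90.5% of that of BSK3, 45.8% of that of extensin-2-like, 36.9% of that of THESEUS and 3.67% of that of FERONIA, beside a median of 65.6%. FERONIA then had 94.1% between replicate numbers and extensin-2-like 84.5%, beside a median of 13.6%. With 5 libraries the groups and the numbers overlap, so the shares do not add up. LsCK is then a single library with no spread of its own, so its distance from the treated libraries counts wholly as between groups. A high share then cannot tell a treatment difference from a trait of LsCK replicate 1 alone. The edgeR estimate of the biological coefficient of variation, the relative spread of a cluster between libraries of a group, was 0.340 for BSK3, 0.475 for arabinogalactan peptide 12-like, 0.564 for THESEUS, 0.642 for FERONIA and 1.17 for extensin-2-like. Without LsCK replicate 2 it was 0.264, 0.238, 0.335, 0.623 and 0.930 in the same order, so the lowest spread passed from BSK3 to arabinogalactan peptide 12-like.

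**Figure D3:**
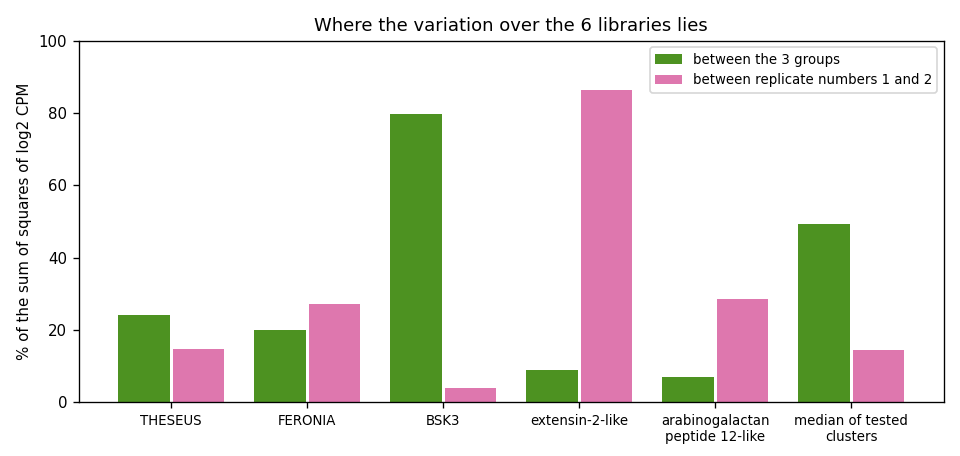
Percent of the sum of squares of log2 CPM over the 6 libraries that lies between the 3 groups (green) and between replicate numbers 1 and 2 (pink), for the 5 clusters and as the median of the tested clusters. With all 6 libraries BSK3 has 79.6% between groups and extensin-2-like 86.2% between replicate numbers.

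Neither the 3 kinases nor the 2 wall proteins had the same pattern over the libraries. Likeness was measured as the root mean square difference, over the 6 libraries, of log2 CPM centred on the mean of each cluster, where a smaller value means more alike. The most alike pair was a sensor and a wall protein, THESEUS and arabinogalactan peptide 12-like, at 0.47. THESEUS and BSK3 were at 0.56, and BSK3 and arabinogalactan peptide 12-like at 0.63. All 3 of these clusters had LsCK replicate 2 as their highest library, and without it the pairs were at 0.41, 0.57 and 0.68 in the same order. FERONIA differed from the other kinases by 1.63 (BSK3) and 1.78 (THESEUS), and extensin-2-like differed from all others by between 2.70 and 3.22. Without LsCK replicate 2 FERONIA was at 1.17 and 1.15 from BSK3 and THESEUS, and extensin-2-like at between 2.34 and 3.50 from all others. The points are 6 libraries of 3 groups, so these values describe the libraries only.

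Among the clusters of the study's core list with a lettuce description, those most like THESEUS were an uncharacterized protein (Cluster-18489.1, 0.19), SPIRAL1-like 5 (Cluster-19070.0, 0.21) and SRG1-like (Cluster-17338.0, 0.21). SPIRAL1 proteins bind cortical microtubules in Arabidopsis. Those most like FERONIA were a hypothetical protein (Cluster-15809.6491, 0.48), EXORDIUM-like 5 (Cluster-14068.0, 0.61) and a GDSL esterase/lipase (Cluster-15809.3090, 0.65). Those most like BSK3 were root phototropism protein 3-like (Cluster-15809.12119, 0.17), an uncharacterized protein (Cluster-15809.8110, 0.18) and FT-interacting protein 1-like (Cluster-15809.6941, 0.21). Arabinogalactan peptide 12-like was closest to a putative disease resistance protein (Cluster-20229.0, 0.19), a UDP-uronic acid transporter 1-like protein (Cluster-15809.5195, 0.22) and auxin transporter-like protein 2 (Cluster-15809.12011, 0.25). Extensin-2-like had no close match on that list. Its nearest were an uncharacterized protein (Cluster-13941.0, 0.81), a benzoate carboxyl methyltransferase-like enzyme (Cluster-15809.14583, 1.27) and ERF096-like (Cluster-7705.0, 1.46), an ethylene-responsive transcription factor. Some of the clusters named here came close to the limit of detection, so their likeness rests on few counts. The lowest library was at 0.167 CPM for Cluster-18489.1 and Cluster-13941.0, 0.175 CPM for Cluster-7705.0 and 0.300 CPM for Cluster-19070.0. Without LsCK replicate 2 the nearest 3 stayed the same for BSK3 and extensin-2-like, 1 of the 3 stayed for FERONIA, and 0 of the 3 stayed for THESEUS and for arabinogalactan peptide 12-like.

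The question whether the 2 algal extracts differ in their effect on these clusters was asked in LsCv versus LsSq. None of the 5 passed the test, and the fitted differences were small beside their errors. The test passed 0 of all 28157 tested clusters, so that outcome does not set the 5 apart. The log2 fold change of THESEUS was −0.35 (95% interval −2.29 to 1.59, edgeR adjusted p = 0.849). FERONIA was at 0.14 (−2.05 to 2.33, adjusted p = 0.950 in edgeR) and BSK3 at −0.24 (−1.24 to 0.76, adjusted p = 0.796 in edgeR). Among the wall proteins, arabinogalactan peptide 12-like was at −0.10 (−1.65 to 1.44, edgeR adjusted p = 0.949) and extensin-2-like at −0.29 (−5.00 to 4.42, edgeR adjusted p = 0.953). The interval of BSK3 was the narrowest of the 5 and that of extensin-2-like the widest in this fit. The spread of a cluster is estimated here from all 6 libraries, so the LsCK libraries enter these errors. With only LsCv and LsSq in the edgeR fit, the SE fell from 0.65 to 0.22 for arabinogalactan peptide 12-like, then the smallest. It fell from 0.81 to 0.39 for THESEUS, from 0.42 to 0.27 for BSK3 and from 1.97 to 1.59 for extensin-2-like. For FERONIA it went from 0.92 to 0.94, and again none of the 5 passed, nor did any other tested cluster. Leaving out a single library turned the direction of 3 of these differences. FERONIA was at −1.34 without LsCv replicate 2 and at −0.58 without LsSq replicate 1. Extensin-2-like was at 0.67 without LsCv replicate 2 and at 2.11 without LsSq replicate 1, and THESEUS at 0.041 without LsCv replicate 2. BSK3 and arabinogalactan peptide 12-like stayed below 0 with each library left out. Both LsCv libraries lay below both LsSq libraries for BSK3 and for arabinogalactan peptide 12-like after TMM scaling. The gaps were 14.05 against 14.08 CPM and 67.0 against 67.8 CPM, and with DESeq2 size factors the groups overlapped for both. LsCv lay wholly below LsSq in 31.3% and wholly above it in 24.1% of all tested clusters, together 55.4%, and in a comparison of 2 with 2 libraries an exact two-sided permutation test cannot go below p = 0.333.

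**Figure D4:**
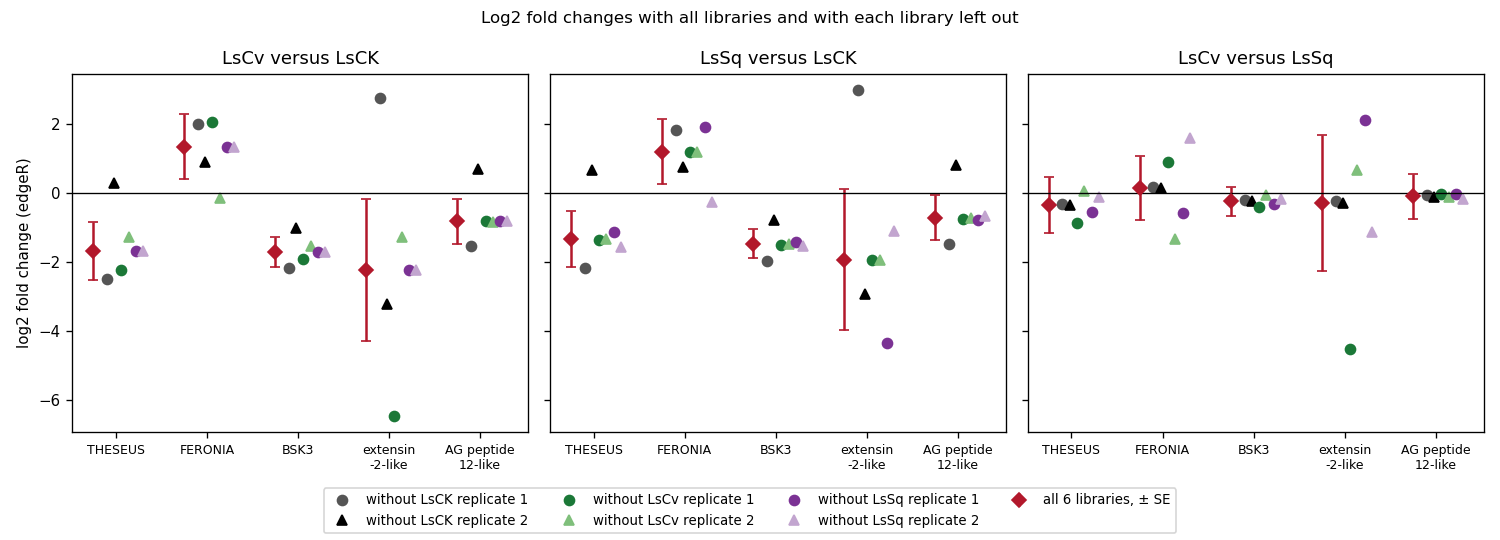
Log2 fold change of each cluster in the 3 comparisons from edgeR with all 6 libraries (red diamonds, bars ± SE) and with each library left out in turn. Against LsCK, THESEUS and arabinogalactan peptide 12-like cross 0 without LsCK replicate 2, FERONIA without replicate 2 of the treatment compared and extensin-2-like without LsCK replicate 1. In LsCv versus LsSq, FERONIA crosses without LsCv replicate 2 or LsSq replicate 1, extensin-2-like likewise and THESEUS without LsCv replicate 2, whereas BSK3 stays below 0 in all 3 panels.

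The qRT-PCR reference of the study, a chloroplastic ribosomal RNA small subunit methyltransferase (Cluster-15809.13020), was measured the same way. It was at 16.5 and 15.7 CPM in LsCK, at 19.1 and 20.4 CPM in LsCv and at 19.7 and 20.2 CPM in LsSq. Its controls lay 1.05-fold apart where those of THESEUS lay 6.94-fold apart, so the gap between the control libraries was not one that all clusters shared. Its treated libraries all lay above both controls, as in 4.35% of the tested clusters.

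The wider set of wall genes was taken from the part of the study's core response list that was held, 1214 clusters of which 291 have a lettuce description. It comprised 22 clusters: 8 sensor and signalling kinases, 6 wall proteins and 8 enzymes or expansins that build or loosen the wall. The 4 members other than extensin-2-like are among them. The study chose that list on the difference from LsCK in these libraries, so directions against LsCK are not independent evidence. Of the 22, 21 had enough counts to be tested, and mannan synthase 1-like (Cluster-9005.0), an enzyme of mannan synthesis, was counted only in LsCK replicate 2, with 15 counts.

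In the 21 clusters LsCK replicate 2 was the highest of the 6 libraries in 18. It was the highest in 121 of the other 248 tested clusters of the core list with a lettuce description (48.8%) and in 19.4% of all tested clusters. A list chosen on a difference from LsCK favours clusters in which a control library is extreme. The other 248 were chosen in the same way but lean in the other direction against LsCK replicate 2, as the medians below show. Nothing is therefore read from either share. The ratio of LsCK replicate 2 to LsCK replicate 1 had a median of 4.03 and ran from 0.190 to 13.0. Against the mean of both controls, 18 of 21 clusters were lower in LsCv and 18 of 21 in LsSq, with median log2 fold changes of −1.58 and −1.48, beside −0.03 and −0.00 over all tested clusters. Against LsCK replicate 1 alone, 13 of 21 clusters had a treated mean above the control and 8 below, with a median log2 ratio of 0.13 beside −0.06 over all tested clusters. Against LsCK replicate 2 alone the median was −2.22 beside −0.04. In the other 248 clusters of the core list these medians were −0.05 against LsCK replicate 1 and 1.56 against LsCK replicate 2. LsCK replicate 1 was nearer to the treated mean than to LsCK replicate 2 in 20 of the 21 clusters, in 90.7% of the other clusters of the core list and in 69.0% of all tested clusters.

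The kinases of the wider set include close relatives of the sensors. A second FERONIA cluster (Cluster-15809.3558) was at 0.515 and 3.14 CPM in the controls, 1.03 and 0.500 CPM in LsCv and 0.945 and 0.307 CPM in LsSq. It thus had its highest value in LsCK replicate 2, the library in which the first FERONIA cluster was lowest. HERK 1, a THESEUS relative that supports cell elongation in Arabidopsis, was represented by 2 clusters that also differed in where they were highest. Cluster-11850.0 was at 0.916 and 7.30 CPM in the controls and from 0.750 to 1.60 CPM in the treated libraries. Cluster-15809.11403 was at 113 and 45.3 CPM in the controls, at 212 and 144 CPM in LsCv and at 194 and 167 CPM in LsSq, and was the only cluster of the 21 with all treated libraries above both controls. PERK9, a kinase with an extensin-like outer part, was at 1.60 and 14.0 CPM in the controls and from 2.07 to 2.998 CPM in treated leaves. Wall-associated receptor kinase-like 1, of a family that binds pectin, was at 1.72 and 4.96 CPM in the controls and from 0.717 to 1.44 CPM in treated leaves, below both controls.

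Of the other wall proteins, the largest gap between the controls was in fasciclin-like arabinogalactan protein 11 (Cluster-7995.0), at 1.66 and 21.6 CPM. Its treated libraries were at 0.554 and 4.00 CPM in LsCv and at 0.880 and 4.87 CPM in LsSq, so that in every group replicate 2 was the higher. That order was not particular to it. It also held for arabinogalactan peptide 13-like, the putative cell wall protein, PERK9, expansin-A1-like, expansin-A11-like and other enzymes of the wider set. HERK 1 Cluster-15809.11403 had the reverse order. Over all tested clusters, replicate 2 was the higher in every group in 17.5% and replicate 1 in 17.5%. Arabinogalactan peptide 13-like was at 4.26 and 48.6 CPM in the controls and from 5.66 to 13.9 CPM in treated leaves, which placed all 4 treated libraries between the controls as for its relative arabinogalactan peptide 12-like. The putative cell wall protein was at 7.90 and 72.5 CPM and the glycine-rich cell wall structural protein 1.8-like at 14.1 and 56.7 CPM in the controls, with treated libraries from 5.99 to 19.6 CPM and from 3.06 to 15.4 CPM. The proteoglycan 4-like cluster, whose protein description names a leucine-rich repeat extensin-like protein, was at 2.37 and 4.12 CPM in the controls and from 0.517 to 0.913 CPM in treated leaves, and was the only wall protein below both controls in every treated library.

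The enzymes and expansins varied in where the treated libraries lay. Expansin-A8-like and expansin-A11-like, proteins that loosen the wall, lay below both controls in every treated library, expansin-A8-like at 16.0 and 44.6 CPM in the controls against 8.82 to 13.7 CPM, and expansin-A11-like at 28.2 and 74.8 CPM against 19.3 to 26.6 CPM. Expansin-A1-like was at 7.98 and 75.1 CPM in the controls and from 3.66 to 15.1 CPM in treated leaves. Xyloglucan endotransglucosylase/hydrolase 7, which cuts and rejoins xyloglucan chains, was at 130.0 and 1058 CPM in the controls and from 177 to 431 CPM in treated leaves, all between the controls. The related protein 31-like was lowest in LsCK replicate 2, at 0.768 CPM, beside 4.03 CPM in LsCK replicate 1 and from 3.55 to 8.55 CPM in treated leaves. Cellulose synthase A subunit 1 was at 6.87 and 16.7 CPM in the controls and from 0.998 to 6.97 CPM in treated leaves, and endoglucanase 6-like at 26.2 and 88.4 CPM and from 12.6 to 31.9 CPM. In all, 5 of the 21 clusters had every treated library below both controls and 1 above. In the other 248 clusters of the core list these were 40 (16.1%) and 48 (19.4%), beside 5.17% and 4.35% of all tested clusters. The core list was chosen on this difference, and its 248 other clusters differ from the 21 in their mix of directions. Nothing is therefore read from these shares.

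**Figure D5:**
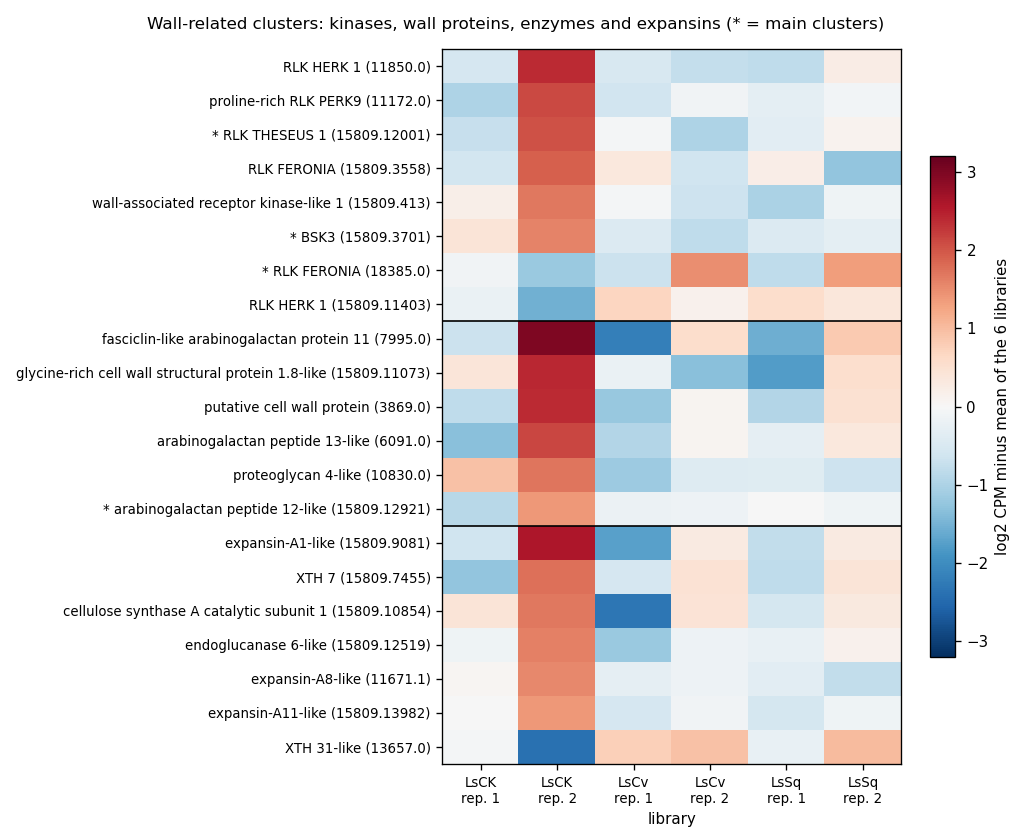
Log2 CPM of the 21 tested wall-related clusters in each library, minus the mean of the 6 libraries (red higher, blue lower), in blocks of kinases, wall proteins, and enzymes or expansins; XTH is xyloglucan endotransglucosylase/hydrolase, RLK receptor-like kinase, the numbers are cluster names and asterisks mark the clusters described first. LsCK replicate 2 is the highest library in 18 of the 21.

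Between the extracts, 0 of the 21 clusters passed edgeR's test, which passed 0 of all 28157 tested clusters. Of the 21, 0 had an unadjusted p under 0.05, beside 16% of all tested clusters. The list was chosen on differences from LsCK, and the LsCK libraries enter the spread used here. A fit with only LsCv and LsSq is not given for the 21, so nothing is read from the 0 beside 16%. In LsCv versus LsSq 7 clusters had a fitted log2 fold change above 0 and 14 below, with a median of −0.23 beside −0.06 over all tested clusters. The median was −0.09 for the 8 kinases, −0.35 for the 6 wall proteins and 0.03 for the 7 enzymes or expansins. All 6 wall proteins had a fitted value below 0 in LsCv versus LsSq, but none passed the test. The share of all tested clusters below 0 was not counted. Their median was itself below 0, so nothing is read from these directions. LsCv lay wholly below LsSq in 1 of the 6, arabinogalactan peptide 12-like, beside 31.3% of all tested clusters. With DESeq2 size factors the groups overlapped for that cluster.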

How the data were processed

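Leaf poly-A RNA of 6 libraries (2 per group) was analysed; groups and replicate numbers came from the series labels. The deposited values are expected counts, which the authors estimated with RSEM on a de novo assembly grouped into 39253 clusters, with no normalization; DESeq2 1.26.0 is among the tools they list. Here the counts were rounded to whole numbers and fitted with edgeR 4.0.16 in R 4.3.3 (filterByExpr, TMM, quasi-likelihood test, all 6 libraries, group only). Benjamini-Hochberg adjustment ran over 28157 clusters with a threshold of 0.05, and fold changes used a prior count of 0.125. For centred log2 CPM the prior count was 2. DESeq2 1.42.0, other scalings and filters, a replicate block and leaving out each library were alternatives.

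The text names the 5 clusters, the wall-related clusters of the study's core list, the qRT-PCR reference and, per cluster, the 3 of that list most like it. Members and lists were chosen with earlier results of these data known. The core list holds the authors' own fold changes and p-values, which were not used. Names came from the study's annotation. In RefSeq's lettuce assembly Lsat_Salinas_v11, 4 of 5 members and 20 of 22 wall-related loci were matched by locus, for names only, since the study's transcript clusters are tied to no genome build. The fitting code was tested on simulated data. Library totals were 26408716 to 35184764 counts. Intervals on counts cover counting error only.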

Additional observations from a re-analysis of the deposited data

How the results depend on the processing

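With all 6 libraries kept, the 5 clusters kept their direction in each comparison under the other scalings, filters, tests and settings tried, and no call of theirs changed, but the replicate block moved some values (below). For LsCv versus LsSq with no single library left out, the lowest adjusted p of each cluster came from edgeR. It was 0.694 for THESEUS with only the groups compared. Without scaling beyond library totals it was 0.676 for BSK3 and 0.883 for arabinogalactan peptide 12-like. For FERONIA it was 0.925 with DESeq2 size factors, and for extensin-2-like 0.319 with the replicate block. The count of clusters called in LsCv versus LsSq was 0 in edgeR, 1488 in DESeq2 with all 6 libraries and 2832 with only the groups compared; the cause was not tested. Leaving out each library in turn moved log2 fold changes in LsCv versus LsCK from −2.49 to 0.29 for THESEUS, from −0.15 to 2.07 for FERONIA, from −6.48 to 2.74 for extensin-2-like and from −1.55 to 0.70 for arabinogalactan peptide 12-like. In LsSq versus LsCK the ranges were −2.17 to 0.65, −0.27 to 1.91, −4.35 to 2.99 and −1.48 to 0.81 in the same order, and in LsCv versus LsSq −0.87 to 0.041, −1.34 to 1.60, −4.53 to 2.11 and −0.17 to −0.05. BSK3 kept its direction in all of them. An arm with 1 library was assumed to vary like the others.

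Replicate numbers are not known to pair libraries: replicate differences of the groups correlated at 0.186, 0.239 and 0.153 over 28157 clusters. A fit with the replicate number as a block called 0 clusters in each comparison. It put extensin-2-like at −1.35 in LsCv versus LsSq (SE 0.65, edgeR adjusted p = 0.319), with a smaller error than without the block. The same fit put extensin-2-like at −1.98 (SE 0.64) in LsCv versus LsCK and at −0.63 (SE 0.66) in LsSq versus LsCK. It put FERONIA at 0.76 in LsCv versus LsCK and 0.62 in LsSq versus LsCK, and arabinogalactan peptide 12-like at −0.47 in LsSq versus LsCK. The values without LsCK replicate 2 of spread and likeness, the other scalings of the overlap and the rest of the core list were added after seeing the data.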
